A study of Mus musculus with 15 samples.

Results

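Heat shock proteins and chaperones were followed as 1 family across mouse embryonic stem cells (ESC) and embryonic germ cells (EGC), which are pluripotent lines made from primordial germ cells. Members were chosen by symbol: every gene starting with Hspa, Hspb, Hspd, Hspe, Hsph, Hsp90, Dnaja, Dnajb or Dnajc, the 8 subunits of the TRiC chaperonin (Tcp1 and 7 Cct genes), and the heat shock factors Hsf1 and Hsf2. Of 34372 genes in the table, 91 matched, and 7 pseudogene symbols were dropped, which left 84. By known location 28 are cytosolic, 8 form TRiC, 8 lie in the lumen of the endoplasmic reticulum (ER) and 8 in mitochondria. Another 2 are transcription factors, and 30 were not placed in a compartment. None is X-linked.

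Polyadenylated RNA was sequenced from 15 libraries, 9 EGC and 6 ESC, all at passage 6. The header of the deposited table gives karyotype and embryonic day. Among germ cell lines it lists 3 XY libraries of E12.5 embryos, here EGC 1 to 3, and 3 XY libraries of E11.5, here EGC 4 to 6. From E11.5 it also lists 2 XX libraries, EGC 7 and 9, and 1 XO library, EGC 8. The stem cell libraries are 3 XX, numbered ESC 1 to 3, and 3 XY, numbered ESC 4 to 6. Lines were picked in 2i-LIF medium, moved to serum with LIF on mouse embryonic fibroblast feeders, and sorted for the surface antigen SSEA1 before RNA extraction. The strain and the number of lines or clones under each header label are not given in the sources used here. Karyotype, stage and line therefore cannot be told apart. In the fits by label, p-values measure only the spread between libraries of 1 label, pooled over all labels.

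Chaperones bind unfolded protein and use ATP to help it fold. HSP70 proteins (Hspa genes) receive clients from J-domain cochaperones (Dnaj genes), HSP90 finishes the folding of kinases and receptors, TRiC encloses actin and tubulin, and small HSPs (Hspb genes) hold unfolded protein without ATP. The ER and mitochondria have their own HSP70 and HSP90 or HSP60 systems. Hsf1 induces the cytosolic set under heat or protein stress, and the unfolded protein response induces the ER set. Pluripotent cells are known for high chaperone levels.

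Values are TPM, a length-scaled share of all transcripts, so levels can be compared between genes. The table holds no counts, so depth is unknown and no counting error can be given. All 8 pluripotency markers were present in every label, with a summed level of 8153 to 16102 TPM. The 14 fibroblast markers summed to 270 to 478 TPM. Their mean log2(TPM + 1) was 3.06 in EGC 4, an E11.5 XY library, and at most 2.41 in any other. The 14 genes of a list for the response to dissociation and sorting stood apart in E11.5 XY EGC, at 1454 to 1609 TPM against 307 to 740 TPM elsewhere. The XO library had a raised chromosome 12, with a median of 0.39 on the log2 scale against at most 0.06 in the others. That chromosome carries the members Hsp90aa1, Dnajb9, Dnajc27 and Hspa2. ESC 3, an XX library, had a raised chromosome 13, with a median of 0.44 against at most 0.03 in the others. Chromosome 13 carries 1 member, Hspb3, whose highest value was 0.21 TPM.

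The family was abundant and led by a few cytosolic genes. The 84 members summed to 16174 to 21477 TPM per library, and 27 had a mean of at least 100 TPM. Hsp90aa1 and Hsp90ab1, the inducible and constitutive cytosolic HSP90 genes, averaged 3751 and 3273 TPM, and Hspa8, the constitutive HSP70, averaged 2209 TPM. These 3 genes carried most of the cytosolic sum. At the other end, 8 members stayed under 1 TPM in at least 14 libraries: Dnajb7, Dnajb8, Dnajc5b, Hspa12b, Hspa1l, Hspb3, Hspb7 and Hspb9. The other 76 passed the filter of 1 TPM in 2 libraries and were tested by label.

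Among labels with replicates the cytosolic sum was highest in XX cells and lowest in E11.5 XY EGC. In ESC the sum averaged 12864 ± 250 TPM with XX (SD, n = 3) and 10521 ± 301 TPM with XY (n = 3). Among EGC it was 12287 ± 45.6 TPM with XX (n = 2), 10925 ± 744 TPM with XY at E12.5 (n = 3) and 9082 ± 236 TPM with XY at E11.5 (n = 3). The ranges of XX and XY libraries did not overlap within either cell type. The single XO library had 12801 TPM, above both XX EGC libraries, of which Hsp90aa1 gave 5144 TPM. With median-ratio scaling XO was the highest label, at 13014 against 12587 in XX ESC. Without Hsp90aa1 the sum was 7657 TPM in XO, between 5849 ± 195 TPM in E11.5 XY EGC and 8331 ± 204 TPM in XX EGC. The mitochondrial sum was highest in XX EGC at 2473 ± 98.5 TPM, then 2161 TPM in XO, 2133 ± 67.2 TPM in XX ESC, 1885 ± 76.7 TPM in XY ESC, 1826 ± 93.3 TPM in E12.5 XY EGC and 1776 ± 77.4 TPM in E11.5 XY EGC. The ranges of the last 3 labels overlapped. The ER sum had no such order: label means ran from 1196 ± 66.1 TPM in XX EGC to 1325 ± 60.6 TPM in E11.5 XY EGC, and among replicated labels the ranges of these 2 were the pair that did not overlap. TRiC summed to 3630 ± 137 TPM in E11.5 XY EGC and to between 4068 and 4246 TPM on average in the other labels.

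**Figure D1:**
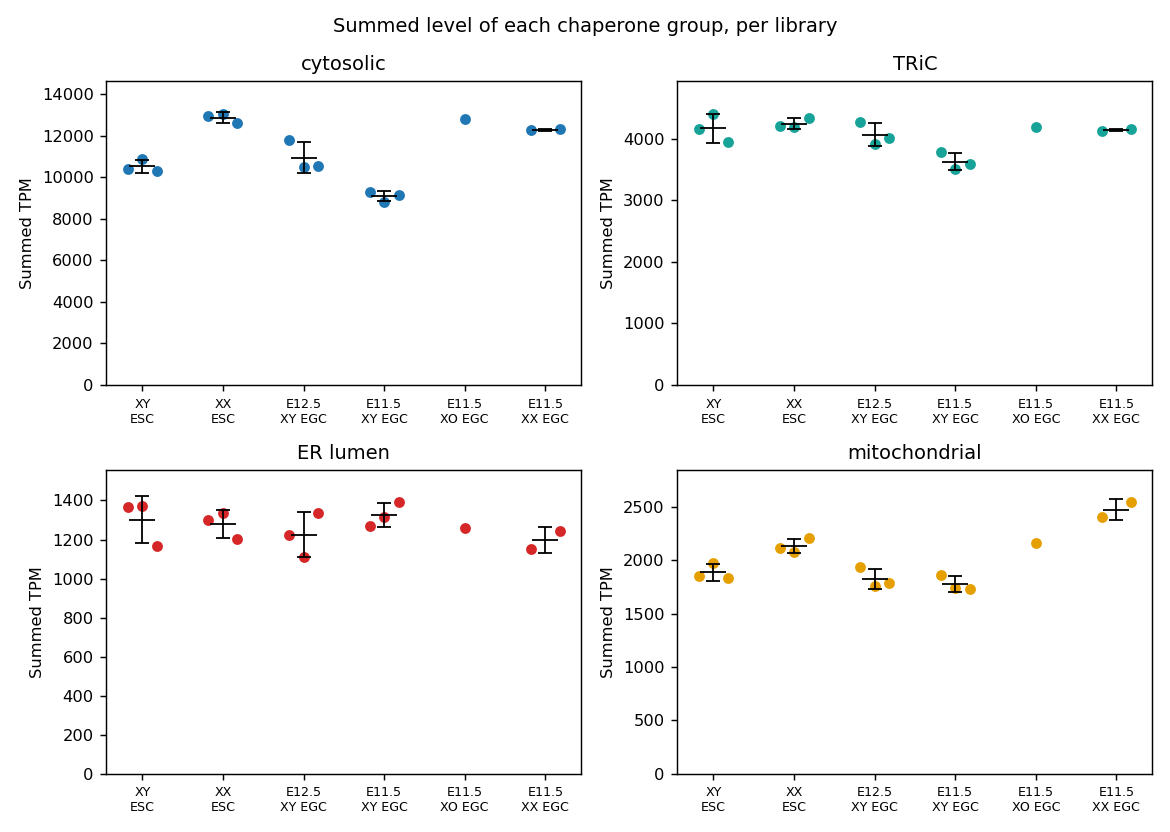
Summed TPM of the 4 chaperone groups (y axis, from 0) in each of 15 libraries by header label (x axis). Points are libraries, bars the mean and SD, and the cytosolic sum runs from 9082 TPM on average in E11.5 XY EGC to 12864 TPM in XX ESC while the label means of the ER lumen sum lie between 1196 and 1325 TPM.

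XX and XY ESC were compared first, as header labels, since karyotype and line cannot be told apart. Of 25 cytosolic members tested, 10 were higher and 2 lower in XX ESC, or 40% and 8%, where 27.3% and 19.3% of all 13879 genes tested were. The counts were 1 and 0 of 8 for TRiC, 2 and 0 of 8 in the ER lumen, 2 and 0 of 8 in mitochondria, and 9 and 7 of 25 among members not placed in a compartment. Differences between these groups were not tested. Hspb1, the main small HSP, had 623, 576 and 596 TPM in XX ESC and 335, 289 and 390 TPM in XY ESC. Hspa8 had 2772, 2846 and 2920 TPM against 2002, 2250 and 2158 TPM. Both genes separated the labels without overlap. Their log2 differences were 0.83 ± 0.11 (SE) for Hspb1 (limma adjusted p = 3.8e-05) and 0.41 ± 0.09 for Hspa8 (adjusted p = 0.0015). Hsp90aa1 rose by 0.36 ± 0.07, Hsph1, a nucleotide exchange factor for HSP70, by 0.47 ± 0.11, and Dnajb6, a J protein that holds back aggregation, by 0.61 ± 0.07. The heat shock factor genes did not pass: Hsf1 differed by -0.12 ± 0.09 and Hsf2 by -0.02 ± 0.09.

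The largest fold changes lay in rare J proteins. Dnajc5g, a testis-type relative of the synaptic cochaperone Dnajc5, had 4.98, 6.41 and 2.29 TPM in XX ESC and 0.102, 0.158 and 0.330 TPM in XY ESC. Dnajb13, a J protein of sperm flagella and cilia, had 11.97, 12.7 and 11.2 TPM against 3.58, 3.49 and 3.91 TPM. Dnajb13 rose by 1.48 ± 0.13 on the log2(TPM + 1) scale. Dnajc5g reached 1 TPM in XX libraries alone, so it entered the fit through the label where it is high, and its difference of 2.14 ± 0.25, which this scale understates, is a description. Among genes that fell were Hspb11, a ciliary transport protein also named Ift25, by 1.08 ± 0.22, and Dnajc22 by 0.99 ± 0.09.

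In all, 24 members were higher and 9 lower of 76 tested, or 31.6% and 11.8%, beside the all-gene shares of 27.3% and 19.3%. Without Dnajc5g 23 were higher. With median-ratio scaling the split was 17 higher and 13 lower, and with quantile scaling 16 and 12. The cytosolic list kept more members higher than lower (7 and 2 in each), while the mitochondrial list came to 2 and 2 with median-ratio and 2 and 1 with quantile scaling, and TRiC to 0 and 1 in each. The median log2 difference was 0.06 for members and 0.05 for all genes. Pluripotency markers moved too, with 6 of 8 higher in XX ESC, and their part in the chaperone values was not tested.

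In E11.5 EGC the same comparison gave a wider spread of differences. Cytosolic members were higher in 11 and lower in 1 of 25, mitochondrial members in 5 and 0 of 8, and TRiC in 5 and 0 of 8. The ER lumen had 1 higher and 3 lower of 8. Over all genes 26.2% were higher and 23.4% lower, and differences between these groups were not tested. The TRiC count came to 1 higher and 1 lower with quantile scaling and 3 and 0 with median-ratio scaling. Hspb1 had 707 and 643 TPM in XX EGC and 253, 265 and 237 TPM in E11.5 XY EGC, a log2 difference of 1.42 ± 0.12 (limma adjusted p = 1.4e-06). Hspa8 had 2578 and 2465 TPM against 1468, 1384 and 1492 TPM (0.80 ± 0.10, adjusted p = 2.3e-05). For both, each XX library lay above each XY library. Hsph1 rose by 0.76 ± 0.12, Hspa4, a nucleotide exchange factor like it, by 0.62 ± 0.09, and Cct8, a TRiC subunit, by 0.57 ± 0.09. Dnajb13 rose by 1.38 ± 0.14. The difference of Dnajc5g was 3.07 ± 0.27, with the same limit as in ESC.

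Dnajb9, an ER J protein induced by the unfolded protein response, went the other way. It had 18.7 and 21.05 TPM in XX EGC and 54.8, 55.7 and 60.3 TPM in E11.5 XY EGC, and fell by 1.47 ± 0.12 (limma adjusted p = 8.2e-07). Outside E11.5 XY EGC no library of any label exceeded 30.4 TPM. Dnajc3, an ER cochaperone that also restrains the kinase PERK, fell by 0.40 ± 0.11, with an adjusted p of 0.088 without EGC 7. Hsp90b1, the ER form of HSP90, fell by 0.28 ± 0.11, with an adjusted p of 0.331 without EGC 7. Hspa5, the ER form of HSP70 also named BiP, did not pass (0.10 ± 0.10, adjusted p = 0.397).

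Over the family, 27 members were higher and 11 lower of 76, or 35.5% and 14.5%, beside 26.2% and 23.4% of all genes, and without Dnajc5g 26 were higher. Dnajb3, also among the higher members, reached 1 TPM in EGC 7, ESC 1 and the XO library but in no XY library. Its call is therefore a description as well. Without EGC 7 the number called fell from 38 to 25. The dissociation and sorting list was lower in XX EGC for 12 of its 14 genes, and its part in these values was not tested.

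Both XX comparisons use separate libraries, but the label model gives them 1 pooled estimate of the spread. The comparisons shared 22 members called in the same direction, 16 higher and 6 lower. That is 66.7% of the 33 called in ESC and 57.9% of the 38 called in EGC. Without Dnajc5g, which reached 1 TPM in XX libraries alone, the shared number was 21. Over all genes 3964 were called in the same direction in both, or 61.3% of the ESC calls and 57.5% of the EGC calls, so the family's shares lay near those of the table. No member was called in opposite directions, beside 175 genes. The calls of 13 of the 22 held in both comparisons under every alternative that gave a value: Dnajb6, Dnajb11, Dnajb13, Dnajc5g, Dnajc15, Hspa4, Hspa8, Hspb1, Hspd1 and Hsph1 were higher, and Dnajc9, Dnajc22 and Hspa12a lower. Dnajc5g is in this list as a description only, having entered the fit through the label where it is high. The other 9 of the 22 each lost a call under at least 1 alternative. Of these, Cct8 and Dnaja1 lost it in ESC under both scalings (adjusted p of 0.0612 to 0.0894) and without each of several ESC libraries (0.0847 to 0.142). Hsp90aa1 lost it in EGC without EGC 9 (adjusted p = 0.108), and Hspb11 in EGC without EGC 7 (0.0551) or EGC 9 (0.0781). The rest were Dnajb2, Dnajc2, Dnajc5, Dnajc21 and Hspa1b.

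**Figure D2:**
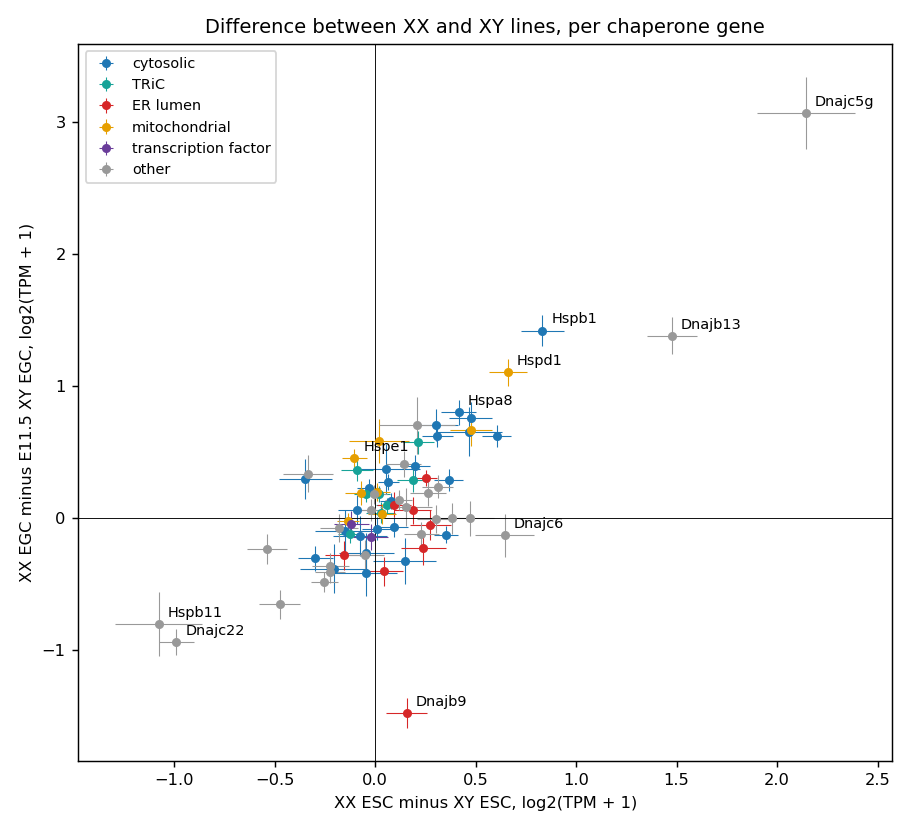
Log2(TPM + 1) difference between XX and XY libraries for each of 76 tested members, in ESC (x axis) and E11.5 EGC (y axis), coloured by group, with bars of 1 SE. Dnajc5g, Dnajb13, Hspb1, Hspd1 and Hspa8 lie high on both axes, and Dnajb9 lies at -1.47 in EGC but 0.16 in ESC.

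The difference between the 2 XX effects was tested as an interaction. It was larger in EGC for 6 members and smaller for 3, or 7.89% and 3.95% of 76, beside 6.08% and 9.51% of all genes. With median-ratio scaling the counts were 10 and 3, and with quantile scaling 4 and 3. Dnajb9 (-1.63 ± 0.16, limma adjusted p = 7.4e-05), Hspe1 (0.56 ± 0.09, adjusted p = 0.0035) and Hspb8, a small HSP of selective autophagy (-0.48 ± 0.09, adjusted p = 0.0058), passed with every single library left out. The other 6, Hspb1, Hspd1, Hspbp1, Cct3, Dnajc12 and Dnajc6, each lost the call without EGC 7, with adjusted p of 0.0904 to 0.173, and without at least 3 further libraries. The number called ran from 3 without EGC 7 to 14 without EGC 1 or ESC 3.

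The mitochondrial chaperonin pair shows 1 such difference at close range. Hspd1 (HSP60) and Hspe1 (HSP10) form the barrel and lid of 1 folding chamber, and their genes lie head to head on chromosome 1. Hspd1 spans 55077835 to 55088243 on the minus strand and Hspe1 55088132 to 55091307 on the plus strand (GRCm38). The shared stretch between their RefSeq starts, chr1:55088019-55088116, is shown because it lies ahead of both starts. Whether it acts on either gene was not tested. Capitals mark overlapping matches to the heat shock element, written GAANNTTCNNGAA and searched on both strands.
Hspe1: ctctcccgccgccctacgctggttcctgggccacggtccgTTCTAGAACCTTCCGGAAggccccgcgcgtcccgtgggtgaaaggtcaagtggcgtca
Hspd1: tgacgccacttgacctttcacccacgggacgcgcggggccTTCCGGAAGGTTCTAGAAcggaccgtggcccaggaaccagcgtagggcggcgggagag
These are the same bases read on the plus and the minus strand.

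In XX ESC, Hspd1 had 707, 705 and 748 TPM against 439, 519 and 414 TPM in XY ESC, while Hspe1 had 608, 573 and 591 TPM against 618, 624 and 662 TPM. Hspd1 was thus higher in every XX library, and Hspe1 lower. The log2 difference was 0.66 ± 0.09 for Hspd1 (limma adjusted p = 7.4e-05) and -0.10 ± 0.06 for Hspe1 (adjusted p = 0.187). In XX EGC, Hspd1 had 729 and 793 TPM against 376, 330 and 355 TPM in E11.5 XY EGC, and Hspe1 781 and 840 TPM against 623, 585 and 567 TPM. Both rose there, by 1.104 ± 0.10 and 0.45 ± 0.07. The ratio of Hspd1 to Hspe1 was 1.22 ± 0.0529 in XX ESC, 0.939 ± 0.00856 in XX EGC, 0.795 ± 0.0414 in E12.5 XY EGC, 0.774 in XO, 0.722 ± 0.103 in XY ESC and 0.598 ± 0.0315 in E11.5 XY EGC. Hspe1 has many processed pseudogenes, 5 of them listed at no more than 0.738 TPM here, and reads could be split between copies. The third abundant mitochondrial chaperone, Hspa9, did not pass in either comparison (0.03 ± 0.07 in ESC and 0.03 ± 0.08 in EGC).

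**Figure D3:**
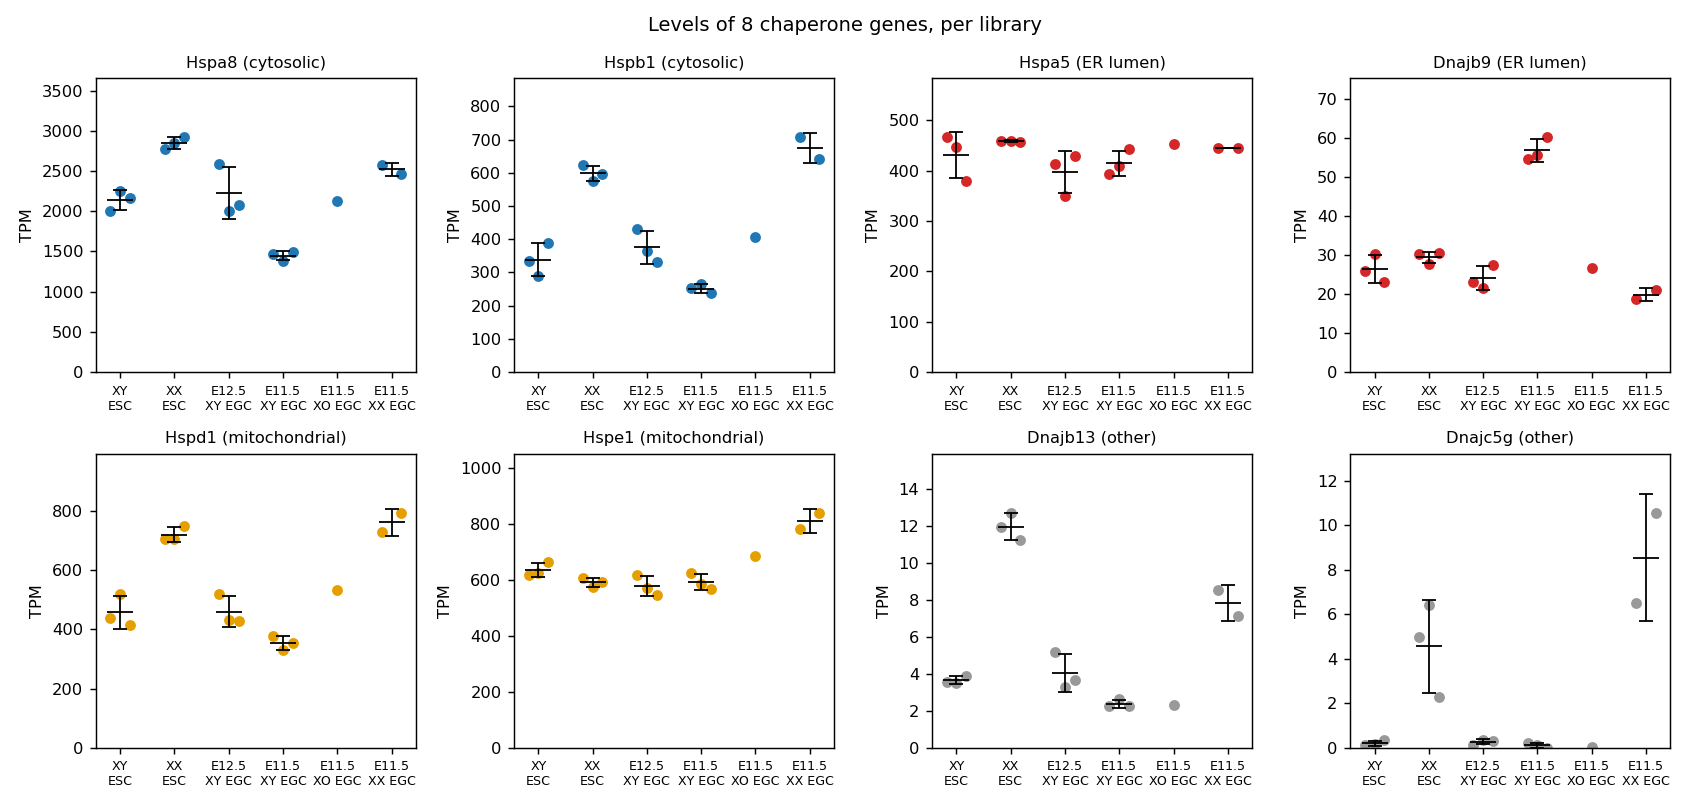
TPM (y axis, from 0, its own scale in each panel) of 8 members in 15 libraries by header label, with points for libraries and bars for mean and SD. Hspd1 is higher in XX ESC than in XY ESC while Hspe1 is not, and Dnajb9 is high in the 3 E11.5 XY EGC libraries, at 54.8 to 60.3 TPM.

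The XO library has 1 X chromosome like XY cells and gives a value with no replicate. For each of the 38 members called between XX and E11.5 XY EGC, its log2(TPM + 1) was placed nearer to one or the other mean, a description chosen after the values had been seen. It lay nearer to XX EGC for 26 members and nearer to E11.5 XY EGC for 12. Dnajb3 is among the 26 and Dnajc5g among the 12, and neither reached 1 TPM in any XY library. No such placement was made over all genes called between these labels, so these counts cannot be read as particular to chaperones. Hsp90aa1, Dnajb9 and Dnajc27 among the 38 lie on chromosome 12, which was raised in the XO library. Nearer to XX were 9 of 12 cytosolic, 4 of 5 TRiC, 4 of 5 mitochondrial and 3 of 4 ER members. Hspa8 had 2122 TPM in XO, Hsph1 61.4 TPM and Dnajb9 26.8 TPM. Of the 12 nearer to XY, 8 were higher in XX EGC: Hspb1 at 407 TPM in XO, Hspe1 at 687 TPM, Dnajb6 at 183 TPM, Cct2, Dnajb11, Hspa1b, Dnajb13 at 2.31 TPM and Dnajc5g at 0.0281 TPM. The 4 that were lower in XX EGC were Dnajc22 at 12.9 TPM, Hspa12a at 2.58 TPM, Hspb11 at 35.7 TPM and Dnajc27. The XO library also had the lowest dissociation and sorting sum, 307 TPM. For E12.5 XY EGC the means lay nearer to XX EGC for 10 of the 38, among them Hspa8, Hsp90ab1, Dnajb9 and 4 TRiC subunits.

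**Figure D4:**
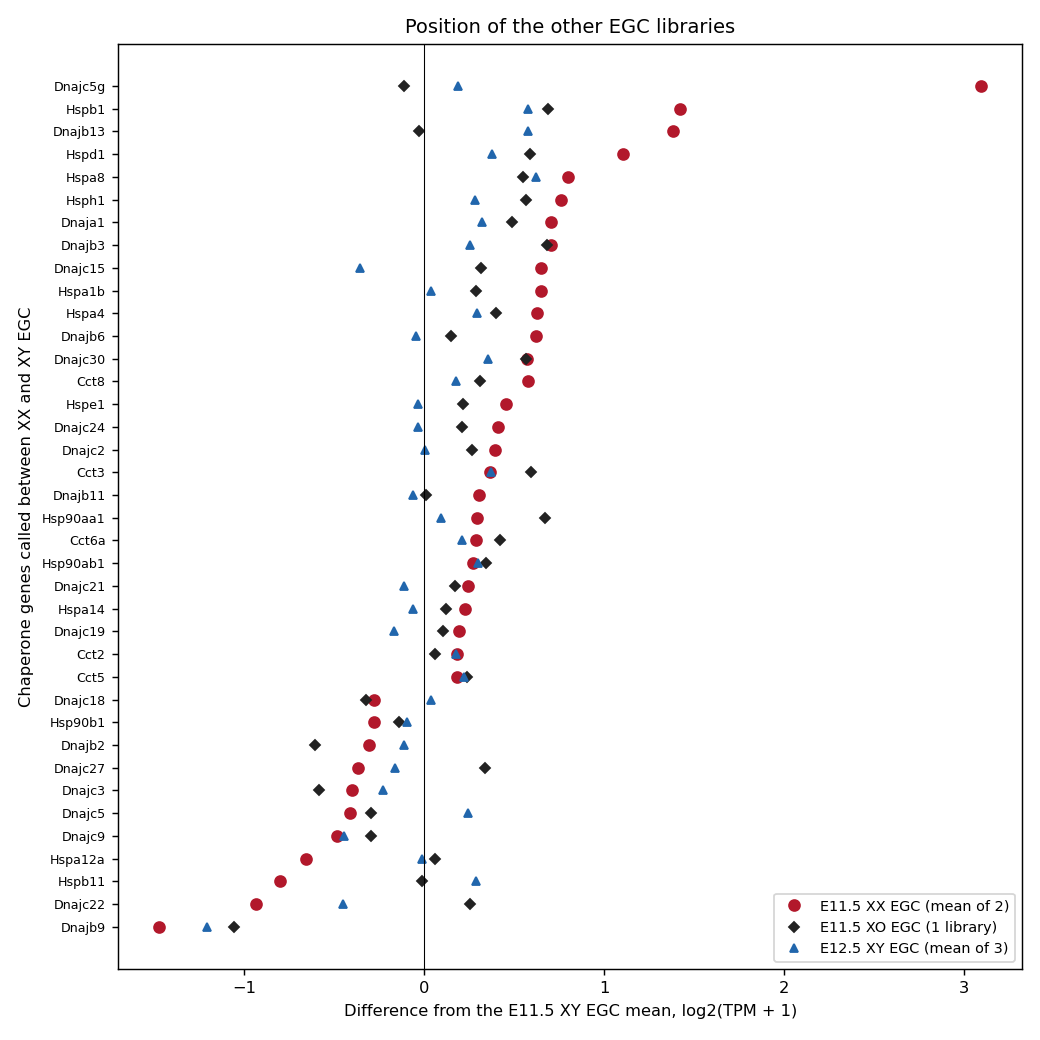
Difference from the E11.5 XY EGC mean in log2(TPM + 1) (x axis) for the 38 members called between XX and E11.5 XY EGC (y axis, ordered by that difference). Circles are XX EGC, diamonds the XO library and triangles E12.5 XY EGC. For Dnajb9 and Hspa8 the XO library and E12.5 XY EGC both lie nearer to XX EGC than to 0. The XO library lies near 0 for Dnajc5g, Dnajb13, Hspa12a and Hspb11.

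E11.5 XY EGC were then set beside the 2 other XY labels. These comparisons share the E11.5 XY libraries with each other and with the XX comparison above. Hspa8 had 2591, 2008 and 2076 TPM in E12.5 XY EGC, above every E11.5 XY library, and rose by 0.61 ± 0.09 against them (limma adjusted p = 0.00026). E11.5 XY EGC lay below XY ESC by -0.56 ± 0.09 (adjusted p = 0.00073). Hspbp1, a nucleotide exchange factor that limits HSP70, had 42.0, 32.7 and 29.8 TPM in E12.5, 21.4, 20.9 and 17.4 TPM in E11.5 XY EGC and 29.3, 30.9 and 38.0 TPM in XY ESC. It was 0.77 ± 0.13 higher in E12.5 than in E11.5 XY EGC and differed by -0.69 ± 0.13 between E11.5 XY EGC and XY ESC. Dnajb9 had 23.1, 21.5 and 27.5 TPM in E12.5 XY EGC and 26.03, 30.3 and 23.2 TPM in XY ESC. It was 1.21 ± 0.10 lower in E12.5 XY EGC than in E11.5 and 1.08 ± 0.10 higher in E11.5 XY EGC than in XY ESC.

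From E11.5 to E12.5 XY EGC, 19 members were higher and 8 lower, or 25% and 10.5%, beside 26.3% and 11.4% of all genes, so the family moved like the table as a whole. The split was 12 higher and 15 lower with median-ratio scaling and 20 and 13 with quantile scaling. Of TRiC subunits 3 were higher and none lower, and 1 and 7 were higher under those scalings. Hsf1 was higher by 0.27 ± 0.09, which did not pass under either (adjusted p = 0.128 and 0.103). Dnaja2 and Dnajb1, both on chromosome 8, were lower by 0.22 each. The chromosome 8 median of EGC 4 was 0.08 against -0.07 and -0.08 in EGC 5 and 6, and without EGC 4 the adjusted p was 0.152 and 0.125.

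Against XY ESC, E11.5 XY EGC had 6 members higher and 15 lower, or 7.89% and 19.7%, beside 12.2% and 13.4% of all genes. TRiC had 0 higher and 4 lower of 8, the same under both scalings, led by Cct3 at -0.45 ± 0.08 (345, 320 and 323 TPM against 444, 447 and 459 TPM). Of these, Cct7 and Cct8 each lost the call without EGC 5, EGC 6, ESC 4 or ESC 5 (limma adjusted p of 0.0538 to 0.101). Over the family, without EGC 5 the number called was 13 and without EGC 6 it was 12. E12.5 XY EGC differed little from XY ESC: 2 members were higher, Hspb8 and Dnajc5, and none lower, beside 3.19% and 0.166% of all genes. Neither passed under median-ratio or quantile scaling. In these contrasts 11 of the 14 dissociation and sorting genes were higher in E11.5 XY EGC than in XY ESC. Of these 14, 9 were lower in E12.5 than in E11.5 XY EGC. Among 11 fibroblast markers tested, 6 were higher and 1 lower in E11.5 XY EGC than in XY ESC. From E11.5 to E12.5 XY EGC 1 of them was higher and 4 lower. The part of either list was not tested.

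Origin of the line was compared within XX cells and over all libraries. Between XX EGC and XX ESC, 4 members were higher and 6 lower, beside 4.09% and 8.44% of all genes. Hspe1 was higher in XX EGC by 0.45 ± 0.07 and passed with every library left out. Dnajb9 was lower by 0.55 ± 0.12, with an adjusted p of 0.114 without EGC 7. The number called was 1 without EGC 7, 2 without EGC 9, 3 without ESC 1 and 6 without ESC 2. Over all EGC and ESC, limma called 0 of 74 members, where 0.0232% of 12909 genes were higher and 0.0232% lower. This fit had no term for header label, so its spread also held differences of karyotype and stage. At an unadjusted p under 0.05 there were 6 members, or 8.11%, beside 9.02% of all genes, and no other tool was run.

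ER members are known for an ER stress element, CCAAT and CCACG with 9 bases between, which binds factors of the unfolded protein response. RefSeq promoter windows (GRCm38.p6, 250 bases before to 50 after the start) were at hand for 68 of 84 members. Hspa8, Hsp90aa1, Hsp90ab1 and Hsf1 were among the 16 without a window and were not searched. Windows of 3 members held the element, or 4.41%, against 0.137% of 27025 genes: Dnajc3, Hsp90b1 and Hspa5. Since ER members are known for it, this share is a description and not a test. A heat shock element lay in 4 members, or 5.88%, against 0.662% of genes: Hspd1, Hspe1, Hsph1 and Dnajb6. For Hspd1 and Hspe1 it is the same shared stretch. The share with a heat shock element is likewise a description and not a test. Member windows had a median of 25 CpG against 7 in all windows, and neither share was adjusted for this. The stretches of Hspa5 (chr2:34771985-34772083, plus strand) and Dnajc3 (chr14:118937787-118937885, plus strand) are shown as examples that hold the element. Capitals mark the ER stress element.
Hspa5: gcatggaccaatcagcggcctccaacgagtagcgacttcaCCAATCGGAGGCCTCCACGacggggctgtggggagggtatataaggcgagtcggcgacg
Dnajc3: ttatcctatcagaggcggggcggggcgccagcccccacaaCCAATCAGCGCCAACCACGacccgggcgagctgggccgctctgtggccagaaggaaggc
A match is a run of letters and not a shown binding site. Hspa5 had 445 and 444 TPM in XX EGC and 394, 409 and 442 TPM in E11.5 XY EGC, and Dnajc3 had 16.9 and 18.9 TPM against 22.4, 24.9 and 24.5 TPM.

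Other genes of protein folding were counted from a separate list. Of 21 ER folding and unfolded protein response genes, 9 were higher and 3 lower in XX ESC, 5 and 6 in XX EGC against E11.5 XY EGC, and 8 and 3 in E12.5 against E11.5 XY EGC. With quantile scaling these became 8 and 6, 5 and 7, and 7 and 5. In the fits without such scaling, 27.3% of all genes were higher and 19.3% lower in XX ESC. In XX EGC 26.2% and 23.4% were, and from E11.5 to E12.5 XY EGC 26.3% and 11.4%. No list in this paragraph was tested against these shares. Atf4 and Herpud1, targets of the stress response, averaged 368 and 33.0 TPM in E11.5 XY EGC, 219 and 15.4 TPM in XX EGC and 226 and 17.3 TPM in XY ESC. Xbp1, the transcription factor of another arm, averaged 32.2 TPM in E11.5 XY EGC, 57.2 TPM in XX EGC and 52.0 TPM in XY ESC, and Pdia4, an ER disulfide isomerase, 70.3, 114 and 115 TPM. Members of this list thus went both ways in E11.5 XY EGC. Of 23 tested cytosolic cofactors, 8 were higher and 7 lower in XX EGC, led upward by Ahsa1, the activator of HSP90, at 0.74 ± 0.09 (259 against 154 TPM), and the split turned to 5 and 9 with quantile scaling. In XX ESC 3 were higher and 4 lower (2 and 8 under either scaling), led by the X-linked prefoldin subunit Vbp1 at 0.92 ± 0.11. Of 12 mitochondrial folding and protease genes 0 were higher and 5 lower in XX ESC, and 2 and 3 in XX EGC.

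Members varied unevenly. The median coefficient of variation over all libraries was 18.9% for cytosolic members, 13.4% for mitochondrial, 11.6% for ER lumen and 7.26% for TRiC, against 7.80%, 5.91%, 8.81% and 4.90% within labels. Hspa1a and Hspa1b, the heat-inducible HSP70 genes, are near-identical copies on chromosome 17, so reads may be split between them and their separate values are uncertain.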

How the data were processed

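The authors deposited 1 table of TPM for 34372 genes in 15 libraries, each column summing to the same total. The submitters' processing notes name edgeR 3.8.6, HTSeq 0.6.0, STAR 2.3.0, Picard 1.100 and SAMtools 0.1.18.0, and the build GRCm38 (mm10). Their roles and the TPM method are not given in the sources used here. Karyotype and stage come from the table header, a blank cell being read as the label at its left. Gene positions came from GENCODE M21.

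limma 3.58.1 in R 4.3.3 was fitted to log2(TPM + 1) (moderated test with trend, 2-sided, Benjamini-Hochberg over all genes tested, threshold 0.05). A model with 1 mean per label (9 residual degrees of freedom) covered the 13879 genes that reached 1 TPM in 2 libraries or more. EGC against ESC covered the 12909 that reached it in 6 or more. The procedure was tested on simulated data. Python 3.11.15 was used for tables and figures. Fold changes on this scale understate low genes.

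The members and lists were chosen with earlier results of these data known. Named genes are the 3 highest of each compartment, Hsf1 and Hsf2, up to 6 called members per direction and comparison by size, and up to 2 other folding genes per direction. Further genes were named after their values were seen. Alternatives were a pseudocount of 0.1, no filter, a filter of 5 TPM, median-ratio and quantile scaling, each library left out, and, for EGC against ESC, karyotype, fibroblast markers, correlated labels and a block.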

Additional observations from a re-analysis of the deposited data

Results flagged for a closer look

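In EGC or ESC as wholes, 4 of 94 checks found a library far from the others, and chance alone flags about 1 in 20 such groups. Its gap to the nearest library as a share of the group's range was 0.541 for Dnajb4 in EGC 6 (7.39 TPM, next 5.18 TPM), 0.659 for Hspa4l in EGC 6 (11.6 TPM, next 7.24 TPM), 0.518 for Hsp90aa1 in the XO library EGC 8 (5144 TPM, next 4132 TPM) and 0.77 for Hspa5 in ESC 6 (380 TPM, next 447 TPM). These groups mix header labels.

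The XX effect differed between EGC and ESC by the interaction test for 9 members. Among them only Dnajb9, Hspe1 and Hspb8 passed with every single library left out. The log2 difference was -1.63 for Dnajb9, -0.771 for Dnajc6, -0.478 for Hspb8, 0.443 for Hspd1, 0.457 for Cct3, 0.557 for Hspe1, 0.589 for Hspb1, 0.646 for Hspbp1 and 0.674 for Dnajc12.

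Outside the comparisons, the chromosome 12 median of the XO library was 0.393 on the log2 scale, where the other libraries reached at most 0.0554. Its Hsp90aa1 value lies on that chromosome, and the part of the chromosome in it was not tested.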

How the results depend on the processing

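No member reversed direction with a call under any alternative run. The number of members called for E12.5 XY EGC against XY ESC, 2 as reported, was 1 without a filter and 0 under quantile scaling. Under median-ratio scaling it was 1, a different member, Dnajc7, with a log2 difference of -0.23 (adjusted p = 0.0434). For the difference of the XX effects, 9 as reported, it was 4 with no filter. With 1 library left out, the number called ran from 24 to 34 for XX against XY ESC, 25 to 39 for XX against E11.5 XY EGC, 21 to 29 between the XY EGC stages, 12 to 23 for E11.5 XY EGC against XY ESC, 0 to 4 for E12.5 XY EGC against XY ESC, 1 to 13 for XX EGC against XX ESC and 3 to 14 for the difference of the XX effects. It stayed at 0 for EGC against ESC. The E12.5 count was 0 without any of EGC 1, 2, 3, 7 or 9 or ESC 4, 5 or 6.

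For EGC against ESC a replicate block on the library numbers called 5 members, all lower in EGC, where the fit without it called 0, and 437 genes in place of 6. That block had been listed on condition that the header numbers both cell types. It does not: the numbers are in accession order and pair nothing, they coincide with karyotype in part, and same-numbered libraries had correlations of -0.41 to 0.26. The 5 calls are therefore given as the outcome of a fit that was run and not as a paired result. Karyotype as a factor, the fibroblast mean and correlated labels (correlation 0.75) each called 0. Depth is unknown, so no limit on low genes such as Dnajc5g can be given, and labels of 1 to 3 libraries limit the precision.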
